A study of Mus musculus with 12 samples.

Results

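Transcript levels were examined for 36 genes that regulate autophagy and the lysosome, in mouse somatosensory cortex after acute ethanol. The genes were taken by symbol from a list that runs from the kinase complex that starts autophagy to the glycoproteins of the lysosome membrane, and each gene's value was the sum over its transcripts. The 36 genes were represented by 61 of the 35840 transcripts in the files. All 36 passed the filter on low counts, as did 14739 of the 24452 gene symbols in all. The 4 groups, each of 3 male pups on a C57BL/6 background, were compared at postnatal day 7. WT saline and WT ethanol pups carried intact Trp53, the gene for p53, and KO saline and KO ethanol pups (p53 KO) were offspring of the same heterozygote matings with a targeted disruption of Trp53 in every cell. Ethanol was given by intraperitoneal injection at 2.5 g/kg in each of 2 injections, controls received saline, and tissue was frozen 8 hr after the second injection. Each library was 1 sample of RNA from dissected cortex, which mixes all cell types of the area, so that fewer cells of a type and less RNA per cell cannot be told apart.

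Autophagy delivers cytoplasm, organelles and protein aggregates to the lysosome. A kinase complex built around ULK1 and a lipid kinase complex built around Beclin 1 start a membrane that is fed with lipid by ATG9 and ATG2, and conjugation enzymes then attach the small ubiquitin-like proteins of the LC3 and GABARAP families to that membrane, where they bind cargo receptors. Neurons depend on this route because they do not dilute damaged components by division, and p53 is known both to induce autophagy genes and to restrain autophagy from the cytoplasm.

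The libraries differed in ways that the groups did not describe. Total counts ran from 719735 in KO ethanol replicate 12 to 17066392 in KO saline replicate 8. Libraries are named by group and the submitters' library number. WT saline 3 and KO ethanol 12 had names that opened with L and the other 10 opened with P. Of the 12 libraries, 4 resembled a library of their own group most closely over all genes tested and 8 resembled a library of another group. Summed counts of Trp53 did not fall in KO libraries, and the share of its transcript NM_001127233 was 7.01% to 23.1% in the 6 WT libraries and 48.3% to 70.6% in 5 KO libraries. In KO ethanol 12 that share was 7.01%, the same as in 3 WT libraries, from 14.0 Trp53 counts, so the knockout was not visible there and it is called the library labelled KO ethanol 12 below.

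Markers of other tissue and of cell types differed between libraries. The blood sums and the neuron sums both separated WT saline from WT ethanol and KO saline. The 5 blood genes (2 alpha and 2 beta globins and Alas2, the heme enzyme of red cells) summed to 337 to 1320 CPM (counts scaled to an equal library total) in WT saline, 50.2 to 145 in WT ethanol, 35.9 to 99.3 in KO saline, and 32.1, 766 and 29.1 in KO ethanol 10, the library labelled 12, and 18. All 5 blood genes passed the test as lower in WT ethanol and in KO saline than in WT saline. The 6 neuron genes summed to 6110 to 7240 CPM in WT saline, 3890 to 5510 in WT ethanol and 4310 to 5960 in KO saline. In KO ethanol 10, the library labelled 12, and 18 they summed to 3660, 7720 and 3850 CPM. Of these genes Tubb3 was at 2820 to 4690 CPM in WT saline and 1140 to 1540 in WT ethanol. Each of the other neuron genes overlapped between those 2 groups. The list of 8 genes of cortical projection neurons was detected in every library, at a sum of 388 CPM in WT ethanol 4 and 757 to 1360 CPM in the others. The 4 striatal genes, among them Ppp1r1b, which encodes the dopamine-regulated phosphatase inhibitor DARPP-32, summed to 66.5 to 119 CPM in WT saline and 95.9, 345 and 721 CPM in WT ethanol 4, 5 and 14, and 3 of the 4 passed the test as higher in WT ethanol. Transthyretin and 3 other choroid plexus genes summed to 0 to 4960 CPM over the 12 libraries. Of the other marker genes, 2 of 5 for interneurons were higher in WT ethanol, as were 2 of 4 for choroid plexus, 1 of 6 for the oligodendrocyte lineage and 1 of 4 for endothelium. Of 6 for microglia 2 were lower, of 6 for neurons 1 was higher and 1 lower, and none of 5 for astrocytes or of 8 for cortical projection neurons was called. Over all genes 12.1% were called higher and 10.4% lower in WT ethanol, and 12.4% and 13.4% in KO saline. The part of blood, neuronal, striatal or choroid plexus RNA in the results that follow was not tested.

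Levels per length were compared with the deposited RPKM (reads scaled by transcript length and library total), which the authors had brought to one distribution across libraries. Genes for the proteins that decorate the autophagosome held the 4 highest levels. Averaged over 12 libraries, Gabarap was at 276 RPKM, Map1lc3a at 252, Gabarapl2 at 202, Gabarapl1 at 188 and Map1lc3b at 136. Over the libraries Gabarap ran from 186 to 465 RPKM, Map1lc3a from 140 to 404, Gabarapl2 from 164 to 278 and Gabarapl1 from 98.1 to 239, so that these 4 overlapped. Map1lc3b, below Lamp1 and Sqstm1 in the order, ran from 97.5 to 169 RPKM and did not overlap Gabarap. Lamp1, a heavily glycosylated protein of the lysosome membrane, was at 156 RPKM and Sqstm1, which encodes the ubiquitin-binding receptor p62, at 154 RPKM. Lamp2, which encodes the partner of LAMP1 in the membrane, was lower at 26.5 RPKM.

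The initiating enzymes were rarer. Ulk2 was at 27.0 RPKM, Atg13 at 13.6, Ulk1 at 11.1 and Rb1cc1, the large scaffold FIP200 of the ULK complex, at 9.34 RPKM. Becn1 at 46.5 RPKM was above the 4 other members of its complex, of which Atg14 was lowest at 4.22 RPKM. The rarest of the 36 was Tfeb, the transcription factor that drives lysosomal genes, at 0.983 RPKM and under 10 counts in 3 libraries, whereas its relative Tfe3 was at 7.81 RPKM.

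**Figure D1:**
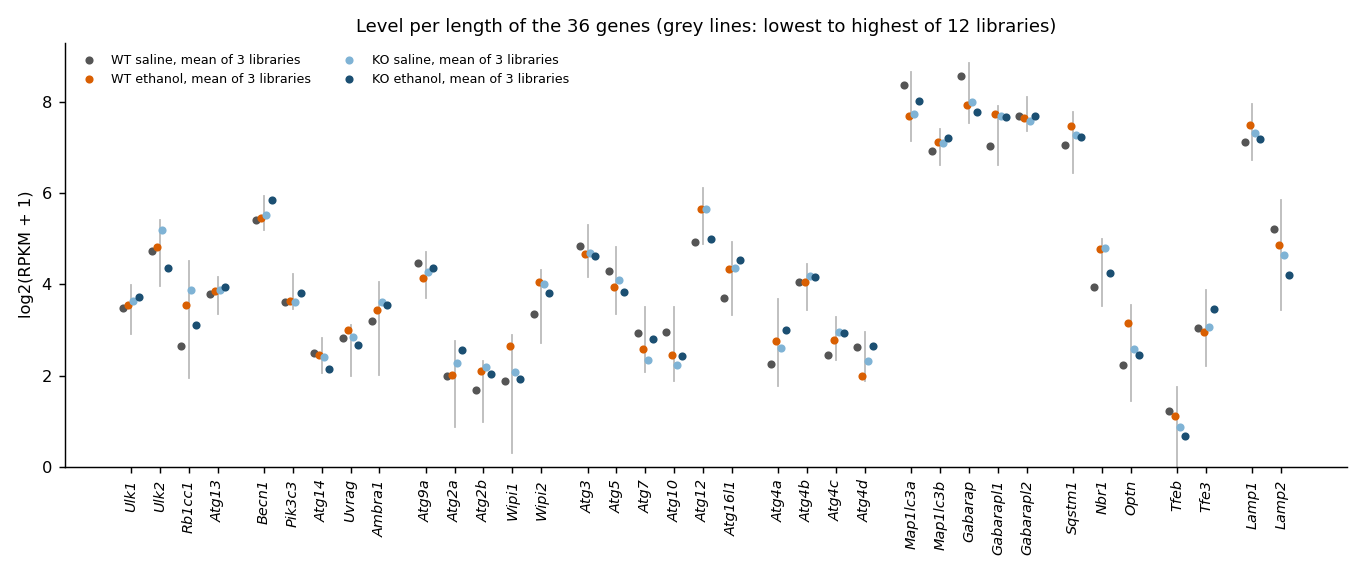
Level per length of the 36 genes, in order of role from the initiation kinases at the left to the lysosome membrane at the right. The vertical axis is log2(RPKM + 1), dots are means of the 3 libraries of a group, and grey lines run from the lowest to the highest of 12 libraries. The 5 LC3 and GABARAP genes, Sqstm1 and Lamp1 stood highest and Tfeb lowest.

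Atg4a has a limit of its own. The files place its single transcript at chr3:103643953-103646068 (mm10), where the annotation has Atg4a-ps, a copy with 1 exon, while Atg4a itself has 13 exons at chrX:140953845-141164194. Its values, 2.41 to 11.9 RPKM, therefore cannot be assigned to the X-linked gene. The exons of 10 members share bases with another annotated gene, 9 of them with a gene on the opposite strand (Becn1 with Cntd1 over 1496 bases, for example), and how the counting used strand is not given in the sources used here.

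Promoter sequences were read for 30 of the 36 genes from RefSeq (GRCm38), as 250 bases before to 50 bases after a start site. They were searched for CACGTG, the E-box that TFEB and TFE3 bind, and for its extension GTCACGTG, on both strands, every match of the extension being also a match of the E-box. The E-box was in 5 of the 30 genes (16.7%) and in 8.09% of the 27025 genes with a promoter, and the extension was in 4 of 30 (13.3%) and in 2.55% of all. The 4 were Lamp1, Atg14, Atg3 and Atg7, and they are printed because they are the members with the lysosomal motif, with E-boxes and extended E-boxes in capitals. The windows are chr8:13158911-13159210 (plus strand) for Lamp1, chr14:47568385-47568684 (minus strand) for Atg14, chr16:45158579-45158878 (plus strand) for Atg3 and chr6:114670846-114671145 (plus strand) for Atg7, the last of which lies inside the gene's span in the files.
Lamp1: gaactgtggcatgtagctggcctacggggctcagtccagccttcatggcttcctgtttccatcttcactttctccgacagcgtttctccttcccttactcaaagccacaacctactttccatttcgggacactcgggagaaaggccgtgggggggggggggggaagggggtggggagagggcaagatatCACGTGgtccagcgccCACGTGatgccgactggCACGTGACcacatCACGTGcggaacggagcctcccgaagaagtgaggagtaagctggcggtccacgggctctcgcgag
Atg14: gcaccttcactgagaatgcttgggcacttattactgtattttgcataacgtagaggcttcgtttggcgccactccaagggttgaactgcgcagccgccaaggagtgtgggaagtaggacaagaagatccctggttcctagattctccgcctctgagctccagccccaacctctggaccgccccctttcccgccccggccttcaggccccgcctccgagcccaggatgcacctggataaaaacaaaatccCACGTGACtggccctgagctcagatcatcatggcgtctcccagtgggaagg
Atg3: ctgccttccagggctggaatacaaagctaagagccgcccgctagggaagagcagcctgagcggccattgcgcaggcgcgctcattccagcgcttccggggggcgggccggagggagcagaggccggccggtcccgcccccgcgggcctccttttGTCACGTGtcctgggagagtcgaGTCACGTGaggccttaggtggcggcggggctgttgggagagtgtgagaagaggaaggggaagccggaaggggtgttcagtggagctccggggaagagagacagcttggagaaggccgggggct
Atg7: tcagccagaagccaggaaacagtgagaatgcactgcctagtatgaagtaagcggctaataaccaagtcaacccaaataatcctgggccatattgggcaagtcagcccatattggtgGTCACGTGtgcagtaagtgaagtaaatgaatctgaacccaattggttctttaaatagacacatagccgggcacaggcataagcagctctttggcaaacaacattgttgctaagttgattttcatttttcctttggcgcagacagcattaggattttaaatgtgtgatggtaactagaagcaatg

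The Lamp1 window held 4 E-boxes, 1 of them extended, and the Atg3 window held 2 extended copies. None of these 4 genes passed the test in a comparison over all 12 libraries below. For contrast the promoters of Gabarap and Gabarapl2, which passed it in WT ethanol, and of Nbr1, which passed it in the opposite direction, are shown, at chr11:69991120-69991419, chr8:111940453-111940752 and chr11:101552404-101552703 on the plus strand (for Nbr1, 1 of its 2 listed windows). These hold neither motif and so have no capitals.
Gabarap: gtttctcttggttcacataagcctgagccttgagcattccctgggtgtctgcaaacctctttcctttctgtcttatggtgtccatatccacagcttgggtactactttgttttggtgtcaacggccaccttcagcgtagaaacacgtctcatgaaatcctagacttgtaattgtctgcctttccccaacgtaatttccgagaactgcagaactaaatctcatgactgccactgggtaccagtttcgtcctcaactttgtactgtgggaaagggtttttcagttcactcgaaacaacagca
Gabarapl2: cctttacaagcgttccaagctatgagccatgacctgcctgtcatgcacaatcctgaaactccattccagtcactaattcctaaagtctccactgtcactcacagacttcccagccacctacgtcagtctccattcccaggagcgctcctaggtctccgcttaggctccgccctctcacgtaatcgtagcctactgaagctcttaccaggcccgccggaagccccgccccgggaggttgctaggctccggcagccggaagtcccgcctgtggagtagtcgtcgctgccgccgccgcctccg
Nbr1: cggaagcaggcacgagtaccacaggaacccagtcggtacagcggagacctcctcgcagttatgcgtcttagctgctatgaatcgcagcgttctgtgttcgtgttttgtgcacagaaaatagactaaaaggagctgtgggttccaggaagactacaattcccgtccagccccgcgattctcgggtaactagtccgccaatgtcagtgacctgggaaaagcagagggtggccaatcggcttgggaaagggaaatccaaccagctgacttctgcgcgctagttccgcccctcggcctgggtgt

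The first comparison asked which members differed between ethanol and saline in WT mice. Of the 36 genes, 9 (25.0%) passed an adjusted p under 0.30, the level used in the study, 6 higher and 3 lower, and 22.5% of all genes tested passed it in this comparison. The 6 higher members were 1 each of the kinase complex (Rb1cc1), PI3P binding (Wipi2), conjugation (Atg16l1) and ATG4 proteases (Atg4c), and 2 cargo receptors (Nbr1 and Optn), against 12.1% of all genes called higher. The 3 lower members, Gabarap, Map1lc3a and Gabarapl2, were all of the LC3 and GABARAP family, against 10.4% of all genes called lower. The share of members called was near that of all genes, and their median log2 fold change was 0.01, beside 0.06 over all genes tested. No member passed an adjusted p under 0.05 in edgeR, which 0.0746% of all genes did, and 5 had an unadjusted p under 0.05, as did 18.3% of all genes. In DESeq2, which passed 3.31% of all genes at an adjusted p under 0.05, 1 member did so, Gabarap (adjusted p = 0.0374).

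**Figure D2:**
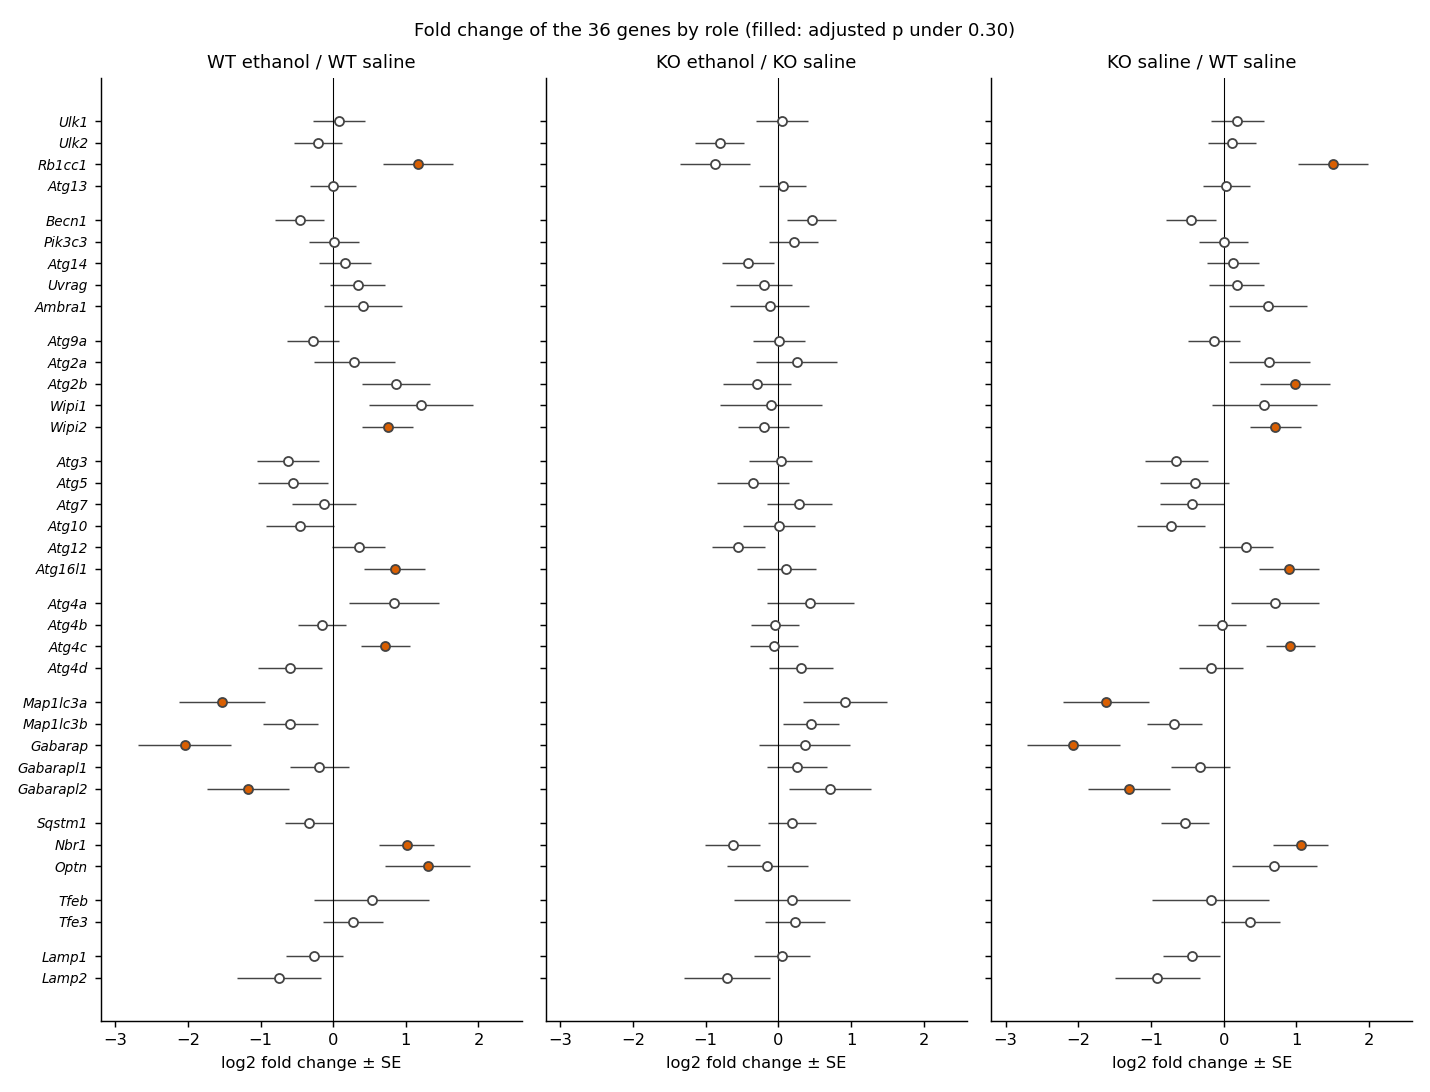
Log2 fold change with its standard error for the 36 genes in 3 comparisons, ordered by role from initiation kinases at the top to the lysosome membrane at the bottom. Filled points passed an adjusted p under 0.30, 9 in WT ethanol against WT saline, 0 in KO ethanol against KO saline and 9 in KO saline against WT saline. Both panels with filled points use the same 3 WT saline libraries, and no gene at all passed in KO ethanol against KO saline.

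The LC3 and GABARAP genes encode the ubiquitin-like proteins that are joined to phosphatidylethanolamine on the growing membrane. Gabarap (chr11:69991370-69994949) was at 2050, 338 and 734 CPM in the WT saline libraries 1, 3 and 13, at 187, 334 and 239 in WT ethanol 4, 5 and 14, at 200, 318 and 224 in KO saline 7, 8 and 9, and at 193, 593 and 170 in KO ethanol 10, the library labelled 12, and 18. All 3 WT saline libraries stood above the 3 WT ethanol libraries, but WT saline 3 was above WT ethanol 5 by only a few CPM and WT saline 1 was far from both others of its group. The log2 fold change in WT was -2.04 ± 0.64 (SE), 4.11-fold lower after ethanol, with an adjusted p of 0.195.

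Map1lc3a (chr2:155276364-155278073), which encodes LC3A, was at 809, 377 and 626 CPM in the WT saline libraries 1, 3 and 13, and at 169, 313 and 146 in WT ethanol 4, 5 and 14. It was at 189, 178 and 223 CPM in KO saline 7, 8 and 9, and at 178, 796 and 153 in KO ethanol 10, the library labelled 12, and 18. The WT saline libraries again lay above all WT ethanol libraries, and the library labelled KO ethanol 12 lay among the WT saline libraries. The log2 fold change in WT was -1.53 ± 0.59 (adjusted p = 0.217). For Gabarapl2, which encodes GATE-16, the means were 414 ± 253 CPM in WT saline and 184 ± 45.8 in WT ethanol (SD, n = 3), a log2 fold change of -1.17 ± 0.56 (adjusted p = 0.281), and the groups overlapped.

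Map1lc3b and Gabarapl1 did not pass the test, with log2 fold changes of -0.59 ± 0.38 and -0.19 ± 0.41. Summed over the 5 genes, the family was at 4400, 1340 and 2650 CPM in the WT saline libraries 1, 3 and 13, at 1020, 1570 and 1070 in WT ethanol 4, 5 and 14, at 1100, 1190 and 1140 in KO saline, and at 1080, 2900 and 959 in KO ethanol 10, the library labelled 12, and 18. The WT saline and WT ethanol sums overlapped, and 3 of the 4 libraries with over 300 CPM of blood genes had the 3 highest sums. These 4 libraries also had the highest sums of neuron genes. Gabarap, Map1lc3a and Gabarapl2 were lower in WT ethanol under TMM, RLE and DESeq2 scaling, under library size alone, with the length and GC trend removed and on log2(RPKM + 1), where their log2 differences were -0.61, -0.72 and -0.06. Map1lc3b turned to higher (0.21) on log2(RPKM + 1), and Gabarapl1 turned to higher there (0.75) and under library size alone (0.29).

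**Figure D3:**
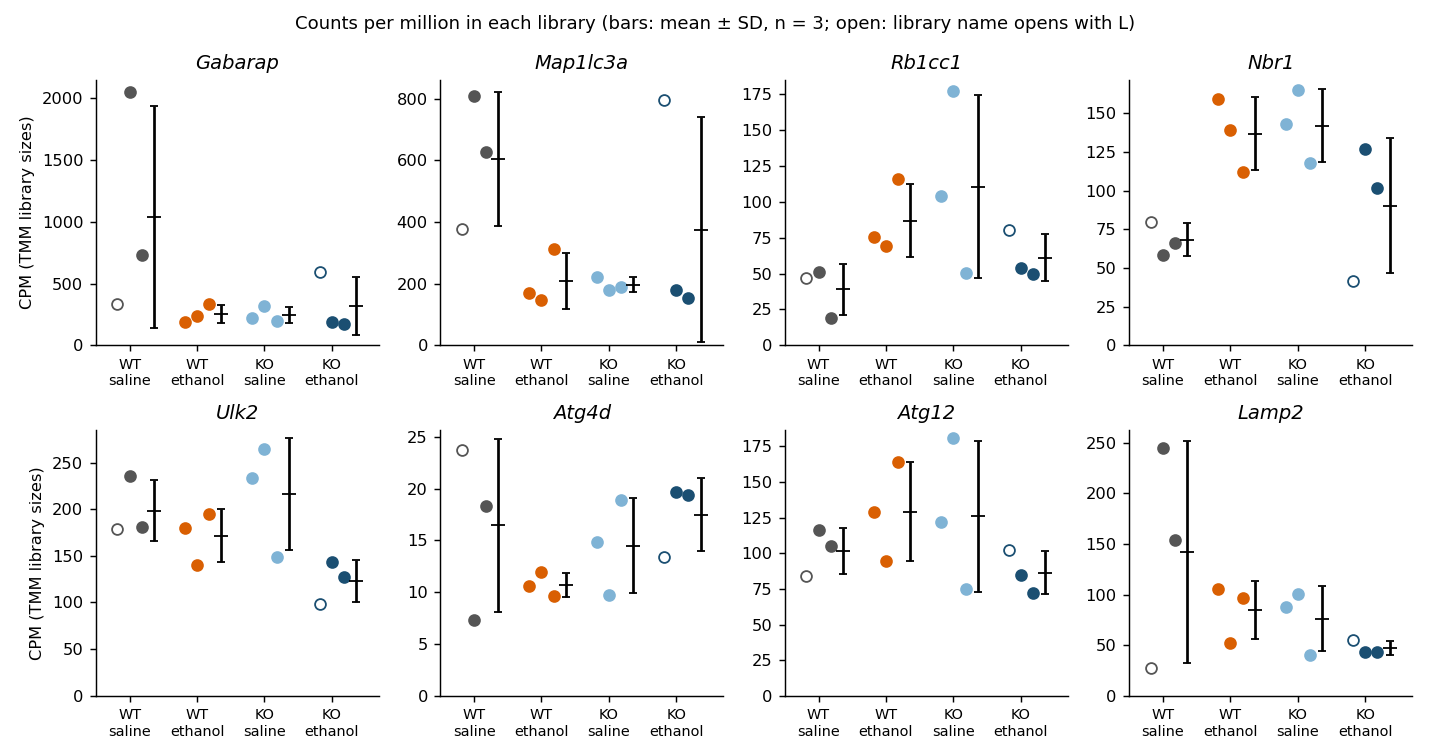
CPM in each library for the 8 members with the smallest p in the 4 comparisons between 2 groups and the interaction. Points are libraries, open points are libraries whose names open with L, and black marks give the mean and SD of 3 libraries. By group mean Gabarap and Map1lc3a were highest in WT saline and Rb1cc1 and Nbr1 lowest there, though single libraries of other groups overlapped WT saline. The open KO ethanol point often stood apart from the other 2 of its group.

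Among the initiation kinases Rb1cc1 (chr1:6214662-6276104) passed the test. It was at 51.1, 46.8 and 18.9 CPM in the WT saline libraries 1, 3 and 13, and at 75.5, 116 and 68.9 in WT ethanol 4, 5 and 14. It was at 50.2, 177 and 104 CPM in KO saline 7, 8 and 9, and at 53.8, 80.2 and 49.5 in KO ethanol 10, the library labelled 12, and 18. Every WT ethanol library stood above every WT saline library, and KO saline 7 lay within the WT saline range. The log2 fold change in WT was 1.17 ± 0.48, 2.24-fold higher after ethanol, with an adjusted p of 0.233. The kinases themselves and Atg13, their regulatory subunit, did not pass the test, with log2 fold changes of 0.08 ± 0.36 for Ulk1, -0.21 ± 0.33 for Ulk2 and 0.00 ± 0.32 for Atg13. None of the 5 members of the PI3-kinase complex passed it. They ranged from -0.46 ± 0.34 for Becn1, the Beclin 1 scaffold, to 0.41 ± 0.54 for Ambra1, its activator.

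The cargo receptors link ubiquitinated proteins to LC3. Nbr1 (chr11:101552107-101581951), a receptor for ubiquitinated aggregates and peroxisomes, was at 58.6, 79.7 and 66.3 CPM in the WT saline libraries 1, 3 and 13, and at 159, 112 and 139 in WT ethanol 4, 5 and 14. It was at 118, 165 and 143 CPM in KO saline 7, 8 and 9, and at 127, 41.8 and 102 in KO ethanol 10, the library labelled 12, and 18. WT saline was lower than WT ethanol and KO saline with no overlap, and the library labelled KO ethanol 12 was the lowest of the 12. The log2 fold change in WT was 1.01 ± 0.38 (adjusted p = 0.215). Optn, which encodes the mitophagy receptor optineurin, rose from 9.47 ± 8.75 to 21.7 ± 7.07 CPM (log2 fold change 1.30 ± 0.58, adjusted p = 0.255) with overlapping groups. Sqstm1 went the other way without passing the test (-0.33 ± 0.33), although its 3 WT ethanol libraries lay below the 3 WT saline libraries.

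Of the genes for lipid supply and PI3P binding, Wipi2, whose protein recruits ATG16L1 to the membrane, rose from 40.4 ± 17.3 to 67.6 ± 10.6 CPM with no overlap (0.75 ± 0.35, adjusted p = 0.275). The lipid transfer genes Atg2a and Atg2b, the scramblase gene Atg9a and Wipi1 did not pass the test, with log2 fold changes from -0.28 to 1.21. Of the conjugation machinery, Atg16l1, which sets where LC3 is attached, rose from 38.5 ± 12.9 to 69.2 ± 30.2 CPM (0.85 ± 0.42, adjusted p = 0.288) with overlapping groups. The E1-like enzyme gene Atg7, the E2-like genes Atg3 and Atg10, and Atg5 and Atg12, whose proteins are joined to each other, did not pass it, between -0.62 and 0.35. Atg4c, one of the proteases that trim and release LC3, rose from 12.3 ± 1.26 to 20.2 ± 1.56 CPM (0.72 ± 0.34, adjusted p = 0.273) with no overlap. Atg4b and Atg4d were at -0.16 ± 0.33 and -0.60 ± 0.44. Tfeb and Tfe3 were at 0.53 ± 0.79 and 0.27 ± 0.41, and Lamp1 and Lamp2 at -0.26 ± 0.39 and -0.75 ± 0.58, none of which passed the test.

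In 7 of the 36 genes (19.4%) the 3 WT ethanol libraries did not overlap the 3 WT saline libraries, and 19.6% of all genes tested were separated in this way. The calls also rested on single libraries. None of the 36 was called without WT saline 1, without WT ethanol 4 or without WT ethanol 14, when 195, 71 and 833 of all genes were. Without WT saline 13 the count was 2, when 14.2% of all genes were called, and without WT saline 3 it was 19, when 48.7% were. With the 2 libraries named with L left out, 24 of 36 (66.7%) were called, 11 higher and 13 lower, but 55.4% of all genes were called then as well. None was called when WT saline and WT ethanol were fitted without the other groups, when 39 of 14006 genes were. Limma on the RPKM values called none either, beside 356 of all genes on log2(RPKM + 1) and 185 on log2(RPKM + 0.1).

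Fold changes followed transcript length. Over all genes the median log2 fold change of WT ethanol against WT saline ran from -0.94 in the shortest 10% of genes, at a median of 918 bases, to 0.66 in the longest 10%, at 7726 bases. The called members divided by length in the same direction. The 3 lower members had a median length of 1351 bases and the 6 higher members 3794 bases, compared with 3171 bases for all 36 and 2965 for all genes. With the length and GC trend of each library removed, 10 members (27.8%) were called in WT, beside 23.9% of all genes, but only 3 were among the 9 called before, namely Gabarap (-1.40, adjusted p = 0.149), Map1lc3a (-1.30, adjusted p = 0.219) and Optn (1.20, adjusted p = 0.264).

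The other 7 genes called after the trend was removed were all lower in WT ethanol. They were the kinase genes Ulk1 (-0.65) and Ulk2 (-0.87), Becn1 (-0.88), Atg9a (-0.83), Atg4b (-0.65), Atg4d (-1.24) and Map1lc3b (-0.74), beside a median of -0.14 over all genes. Rb1cc1 and Nbr1 kept their direction, at 0.48 and 0.49, with adjusted p of 0.526 and 0.332, and were no longer called. Gabarapl2 was at -0.73 (adjusted p = 0.324). The direction of 9 of 9 called genes was the same with and without the trend for these 9, while Ulk1 went from 0.08 to -0.65.

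**Figure D4:**
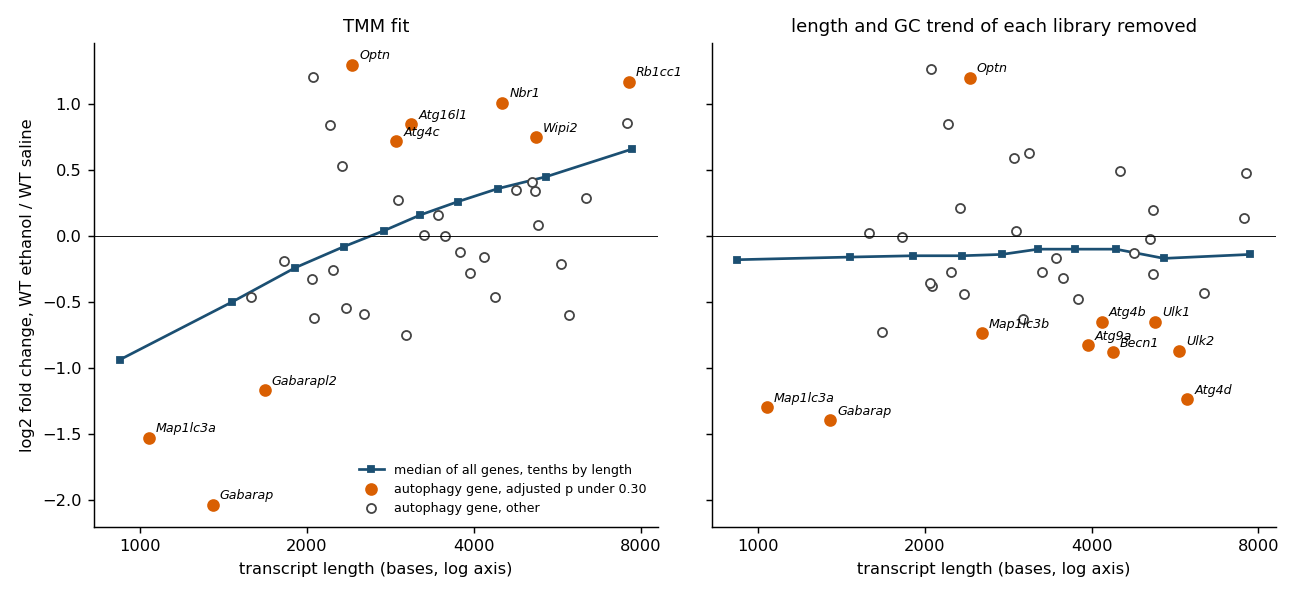
Log2 fold change of WT ethanol against WT saline by transcript length (log axis, in bases), without (left) and with (right) removal of each library's length and GC trend. Circles are the 36 genes, filled where the adjusted p was under 0.30, and the line joins the medians of all genes in 10 equal bins by length. At the left the line climbs from -0.94 to 0.66, with the 3 lower called genes among the shorter ones, and at the right it is nearly flat and Gabarap, Map1lc3a and Optn are the called genes that both panels share.

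The second comparison asked whether ethanol changed the members in p53 KO mice. None of the 36 genes passed an adjusted p under 0.30 in edgeR or under any alternative run, and their lowest adjusted p was 0.999. None of all 14739 genes passed it in edgeR either. One member (2.78%) had an unadjusted p under 0.05, beside 3.15% of all genes. This was Ulk2, a kinase that starts autophagy, at 149, 265 and 234 CPM in KO saline 7, 8 and 9 and at 143, 98.6 and 127 in KO ethanol 10, the library labelled 12, and 18, compared with 236, 179 and 181 in WT saline 1, 3 and 13 and 180, 195 and 140 in WT ethanol 4, 5 and 14. Its KO libraries did not overlap by treatment, though KO saline 7 and KO ethanol 10 were nearly equal. The log2 fold change was -0.81 ± 0.34 (unadjusted p = 0.0308), and -0.41 with the length trend removed. Rb1cc1, Nbr1 and Map1lc3a had the next lowest p, at -0.87 ± 0.48, -0.63 ± 0.38 and 0.92 ± 0.58. Without the library labelled KO ethanol 12, Map1lc3a was at -0.25.

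The third comparison was of KO saline with WT saline, and it shared the WT saline libraries with the first. Of the 36 genes, 9 (25.0%) were called, beside 25.8% of all genes. The 6 higher were Rb1cc1, Atg2b, Wipi2, Atg16l1, Atg4c and Nbr1 (12.4% of all genes were called higher) and the 3 lower were Gabarap, Map1lc3a and Gabarapl2 (13.4% of all genes). None passed an adjusted p under 0.05 in edgeR, which 0.0543% of all genes did, and 7 had an unadjusted p under 0.05, as did 19.6% of all genes. Gabarap passed an adjusted p under 0.05 in DESeq2 (adjusted p = 0.0288), as did 4.76% of all genes. Gabarap was at -2.07 ± 0.64 (adjusted p = 0.176), beside -2.04 for ethanol in WT. Rb1cc1 was at 1.51 ± 0.48 (adjusted p = 0.176), beside 1.17. Nbr1 was at 1.06 ± 0.38 (adjusted p = 0.183), beside 1.01, and Map1lc3a at -1.62 ± 0.59 (adjusted p = 0.185), beside -1.53. A low or high value in the 3 WT saline libraries enters both columns of these pairs, and their likeness is therefore not a second observation.

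The KO saline libraries were tight for several of these genes. Atg4c was at 23.2 ± 0.955 CPM in KO saline and 12.3 ± 1.26 in WT saline, and Atg2b, which encodes a lipid transfer protein, at 43.2 ± 2.58 and 22.4 ± 16.9 CPM. In 10 genes (27.8%) the groups did not overlap, beside 22.9% of all genes. With the length and GC trend removed 7 (19.4%) were called, beside 18.2% of all genes, and 3 of these were among the 9 called before, Gabarap (-1.29), Map1lc3a (-1.14) and Atg4c (0.80). None was called without WT saline 1, KO saline 8 or KO saline 9, when 37, 9 and 9 of all genes were. Without KO saline 7 the count was 3, beside 9.57% of all genes. It was 4 without WT saline 13, beside 13.7%, and 22 without WT saline 3, beside 50.4%. Without the 2 libraries named with L, 24 (66.7%) were called, beside 56.4% of all genes.

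The comparison of KO ethanol with WT ethanol called none of the members, in edgeR or under any alternative, and edgeR called none of all 14739 genes. Of the 36, 0 had an unadjusted p under 0.05 (beside 3.24% of all genes). The smallest p were those of Atg4d, Atg12, Nbr1 and Lamp2. Atg4d, an LC3 protease gene, was at 10.6, 9.64 and 11.9 CPM in WT ethanol 4, 5 and 14 and at 19.7, 13.4 and 19.4 in KO ethanol 10, the library labelled 12, and 18, and at 7.35, 23.7 and 18.3 in WT saline 1, 3 and 13 and 18.9, 9.72 and 14.8 in KO saline 7, 8 and 9. Its ethanol groups did not overlap, while its saline groups spanned both, and the log2 fold change was 0.74 ± 0.45 (adjusted p = 0.982).

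Atg12, the ubiquitin-like partner of Atg5, was at 129, 164 and 94.5 CPM in WT ethanol 4, 5 and 14, at 85.1, 102 and 72.2 in KO ethanol 10, the library labelled 12, and 18, at 116, 83.8 and 105 in WT saline 1, 3 and 13, and at 74.9, 181 and 122 in KO saline 7, 8 and 9. Lamp2, which is needed for fusion and for chaperone-mediated autophagy, was at 106, 96.7 and 52.3 CPM in WT ethanol 4, 5 and 14, at 43.3, 55.2 and 42.8 in KO ethanol 10, the library labelled 12, and 18, at 245, 27.3 and 154 in WT saline 1, 3 and 13, and at 40.1, 101 and 87.6 in KO saline 7, 8 and 9. Both genes had overlapping groups, and WT saline 3 was the lowest of all 12 libraries for Lamp2. Their log2 fold changes were -0.59 ± 0.37 and -0.87 ± 0.59, and that of Nbr1 was -0.58 ± 0.38.

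The 2-way model gave no main effect on any member at an adjusted p under 0.30. Over all 14739 genes 1 passed it for Treatment and none for Genotype. One member (2.78%) had an unadjusted p under 0.05 for Treatment, beside 7.09% of all genes, and 1 (2.78%) for Genotype, beside 7.67%. The interaction, the difference between the ethanol effect in KO and in WT, passed the adjusted level for 5 members (13.9%), beside 11.1% of all genes. It was 2.45 ± 0.82 for Map1lc3a, 2.39 ± 0.89 for Gabarap and 1.88 ± 0.79 for Gabarapl2, and -2.04 ± 0.68 for Rb1cc1 and -1.64 ± 0.54 for Nbr1, with adjusted p between 0.25 and 0.295. For the 3 LC3 and GABARAP genes the library labelled KO ethanol 12 was at WT saline levels. Without it no member's interaction passed, but only 35 of 15007 genes did, beside 1632 of 14739 with all libraries. Leaving out WT saline 1, WT ethanol 4, WT ethanol 14, KO saline 8 or KO saline 9 also left no member. Over all genes these runs left 20, 0, 112, 0 and 0. Leaving out WT saline 3 gave 13 members, beside 33.8% of all genes. No member passed with the length and GC trend removed, beside 30 of all genes. The 5 values were then 1.34, 1.29, 1.31, -0.33 and -0.90, in the order of the genes above.

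**Figure D5:**
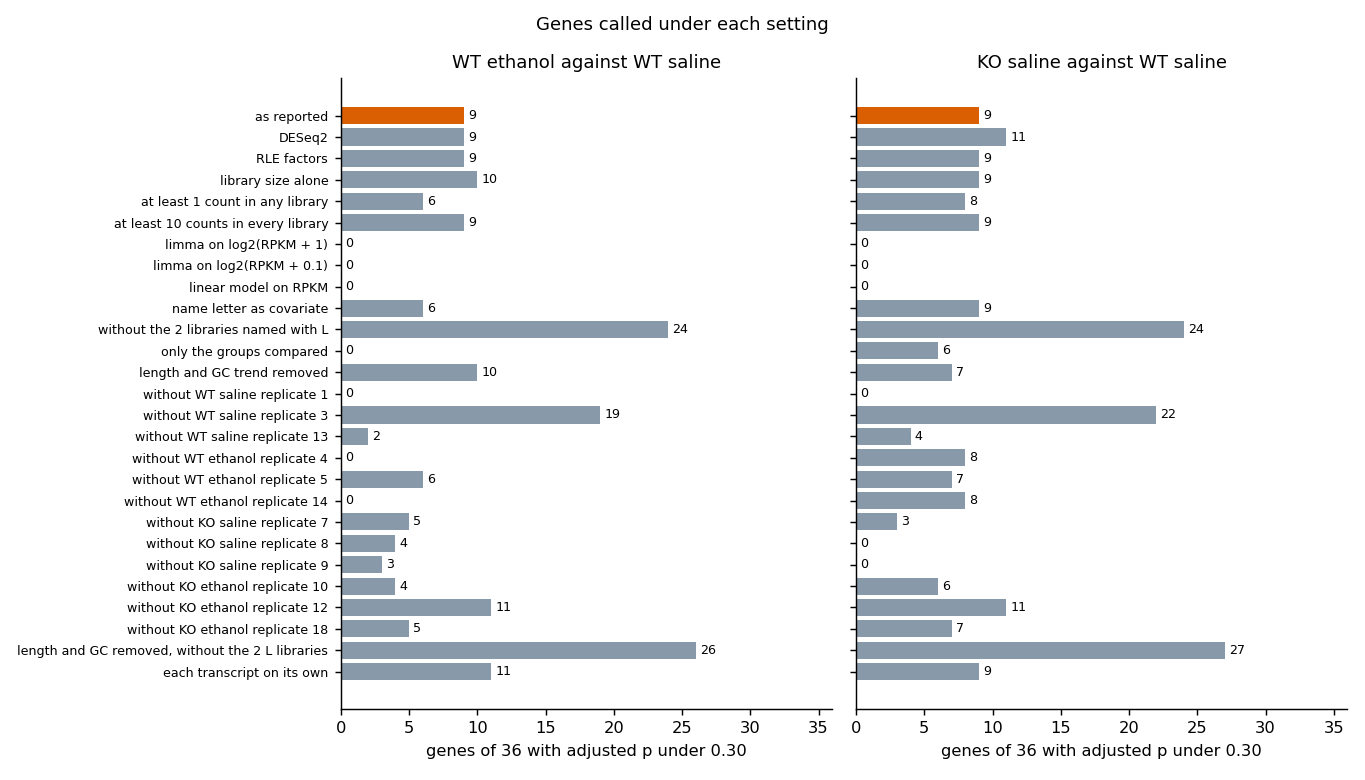
Number of the 36 genes with an adjusted p under 0.30 under each setting, for WT ethanol against WT saline (left) and KO saline against WT saline (right). The orange bar is the value in the text, 9 in both, and grey bars run from 0, without WT saline 1 for example, to 26 and 27 with the trend and the 2 L libraries both removed. Over all genes 195 and 37 were called without WT saline 1.

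The division of counts among transcripts was examined in the 11 members with at least 2 transcripts that each held 10% or more of the gene's count, 25 transcripts in all. Some of these shares were set by the quantification, since the 2 Lamp1 transcripts stayed at 48.3% to 48.4% and 51.6% to 51.7% in every library. Shares did not overlap between WT ethanol and WT saline for 1 transcript (4.0%), beside 20.2% of such transcripts of all genes, and for 2 (8.0%) between KO ethanol and KO saline, beside 9.96%. The counts were 5 (20%) for KO saline and WT saline, beside 22.8%, and 3 (12.0%) for KO ethanol and WT ethanol, beside 8.91%. An exact permutation test of 3 against 3 libraries cannot give a two-sided p below 0.1, so none could pass 0.05. Map1lc3a divided into a coding transcript and a noncoding one, NR_046364, whose share was 39.5%, 52.8% and 30.5% in WT saline 1, 3 and 13, 14.0%, 15.4% and 34.7% in WT ethanol 4, 5 and 14, 28.2%, 29.9% and 4.14% in KO saline 7, 8 and 9, and 17.4%, 35.6% and 6.39% in KO ethanol 10, the library labelled 12, and 18. The noncoding share was lower in all KO saline than in all WT saline libraries, and it overlapped between the WT groups.

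The rest of the pathway was followed in 8 further lists with 141 genes, all of which passed the filter. In WT ethanol 7 of the 141 rose and 24 fell, beside 12.1% of all genes called higher and 10.4% lower. In KO saline against WT saline 9 were higher and 29 lower, beside 12.4% and 13.4% of all genes. In KO ethanol against KO saline and against WT ethanol none was called, in these lists or over all genes. These directions depended on the scaling. Under library size alone 18 were higher and 5 lower in WT ethanol (24.1% and 3.42% of all genes). In KO saline 21 were then higher and 10 lower, beside 3371 and 680 of all 14739 genes. In WT ethanol limma on log2(RPKM + 1) called 2 higher and none lower, beside 222 and 134 of all genes. With the length and GC trend removed 5 rose and 32 fell in WT ethanol, beside 1207 and 2321 of all genes. Lysosomal hydrolases and their cofactors, the enzymes that degrade the delivered cargo, included 6 of 30 that fell and none that rose in WT ethanol, with a median log2 fold change of -0.38, beside 0.06 over all genes. Ctsz (cathepsin Z) went from 68.7 ± 34.9 to 29.5 ± 6.43 CPM (-1.23 ± 0.47, adjusted p = 0.216), and Glb1 (lysosomal beta-galactosidase) was at -1.01 ± 0.40. With the length and GC trend removed 10 of 30 fell and none rose (median -0.60, beside -0.14), but under library size alone, which moved the median of all genes to 0.49, 3 rose and none fell (median 0.14), and on log2(RPKM + 1) none was called (median -0.04). In KO saline compared with WT saline the same list had 7 lower and none higher (median -0.51), with Npc2, the cholesterol carrier, at -1.28 ± 0.48.

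Of the 18 subunits of the vacuolar ATPase, which acidifies the lysosome, 5 fell in WT ethanol, with a median of -0.56. Over all genes 10.4% were called lower in this comparison. Atp6v0e (-1.55 ± 0.56), Atp6v1g1 (-1.28 ± 0.48) and Atp6v1f (-1.49 ± 0.62) had the smallest p. These are short transcripts, the list's median length being 1857 bases, and with the trend removed the 3 were at -0.38, -0.51 and -0.49. Over the list 15 of 18 were then still lower, 4 of them called, with a median of -0.42 beside -0.14 over all genes. Of all 14739 genes 2321 were called lower and 1207 higher with the trend removed. On log2(RPKM + 1) 13 of the 18 were higher in WT ethanol (median 0.32), so that the direction of this list depended on the scaling. Of 15 lysosomal membrane proteins 3 fell and none rose, led by Laptm4a (-1.37 ± 0.47, and -1.05 with the trend removed).

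Among 27 regulators of mTORC1 and AMPK, the kinases that read nutrients and energy for the ULK complex, 1 rose and 5 fell in WT ethanol. Over all genes 12.1% were called higher and 10.4% lower there. The one that rose, Prkab2, a regulatory subunit of AMPK, went from 11.4 ± 6.12 CPM in WT saline to 58.7 ± 15.0 in WT ethanol (2.34 ± 0.60, adjusted p = 0.153), was at 57.5 ± 4.75 in KO saline, and stayed called with the trend removed (1.75, adjusted p = 0.139). The Ragulator genes Lamtor5 and Lamtor4 fell, at -1.74 ± 0.60 and -1.56 ± 0.57. Of 6 p53-linked genes only Sesn2, a stress-induced inhibitor of mTORC1, was called. Its means were 2.48 ± 2.06 CPM for WT saline, 10.7 ± 5.78 for WT ethanol (2.10 ± 0.83, adjusted p = 0.223) and 9.74 ± 4.67 for KO saline, that is, also higher in mice without p53 than in WT saline (1.95 ± 0.83, adjusted p = 0.223).

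Other lists held calls in both directions in WT ethanol, beside 12.1% of all genes called higher and 10.4% lower. Of 14 other early genes 2 rose and 2 fell, including Foxo3, a transcription factor of autophagy genes (2.25 ± 0.71), and Vmp1, an endoplasmic reticulum scramblase (-1.42 ± 0.55). Of 16 other receptors and mitophagy genes 1 rose, Ccpg1, the receptor for endoplasmic reticulum (0.75 ± 0.30), and 2 fell, Fkbp8 (-0.93 ± 0.46) and Phb2 (-0.72 ± 0.36), but under library size alone 5 rose and none fell, and on log2(RPKM + 1) none was called. Of 15 genes for maturation and fusion, 2 rose, the HOPS tether genes Vps33a (0.73 ± 0.31) and Vps39 (0.71 ± 0.34), and the SNARE gene Vamp8 fell (-1.61 ± 0.68). With the trend removed neither tether gene was called (0.26 and 0.25), the list having none higher and 1 lower, and under library size alone it had 4 higher and none lower. Over all 14739 genes 3547 were called higher and 504 lower under library size alone. With the trend removed 1207 were higher and 2321 lower, and on log2(RPKM + 1) 222 and 134. All values in these lists for WT ethanol share the 3 WT saline libraries. Blood genes summed to 337 to 1320 CPM there, against 50.2 to 145 CPM in WT ethanol. Neuron genes summed to 6110 to 7240 CPM there, against 3890 to 5510 CPM in WT ethanol.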

How the data were processed

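The data were 12 libraries of single-end stranded total RNA-seq, 3 per group, grouped by the labels. The labels give no animal or litter numbers. In the fit over all 12 libraries, p-values rest on the spread between libraries of the same group, pooled over the groups. A p-value for WT ethanol against WT saline therefore also uses the spread among KO libraries. According to the methods, tissue came in part by laser microdissection and in part by hole punch, and which libraries had which was not assigned here. The authors filtered reads by quality, aligned them with Bowtie2 within TopHat to mm10 and quantified RefSeq transcripts in Partek. The deposited files hold estimated counts per transcript, not scaled for depth, and the deposited RPKM values, whose sorted values nearly coincide between libraries.

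Estimated counts were summed per gene symbol and rounded. After TMM scaling and filtering with filterByExpr, edgeR's quasi-likelihood test was fitted over all 12 libraries and 14739 genes, with Benjamini-Hochberg adjustment over all genes and a level of 0.30. There were 7 contrasts: 4 between groups, both main effects and the interaction. Levels per length used summed RPKM. CPM is counts scaled to a common library total after TMM, and the SD is over 3 libraries. The length and GC trend was removed per library with a spline (5 degrees of freedom). Scripts were tested on simulated data.

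The 36 genes and the further lists were chosen with earlier results of these data known. Values in every library are given for the 4 members with the smallest p in each contrast between groups and in the interaction, and at most 3 genes per contrast are named from each other list. One gene that this rule names is not reported here. Alternatives were DESeq2, RLE factors, library size alone, 2 other count filters, limma on log2(RPKM + 1) and log2(RPKM + 0.1), a linear model on RPKM, the name letter as covariate, the 2 libraries named with L left out, only the groups compared, the trend removed, transcripts on their own, and each library left out. Total counts of 719735 to 17066392 limit the rarest genes. The fits ran in R 4.3.3 with edgeR 4.0.16, limma 3.58.1 and DESeq2 1.42.0. Tables and figures were made in Python 3.11.15 with pandas 2.3.3, matplotlib 3.10.9, scipy 1.17.1 and numpy 2.4.6.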

Additional observations from a re-analysis of the deposited data

Results flagged for a closer look

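The ethanol effect differed between KO and WT, by the interaction term in edgeR at an adjusted p under 0.30, for 5 genes. The effect in KO minus the effect in WT was 2.45 on the log2 scale for Map1lc3a, 2.39 for Gabarap, 1.88 for Gabarapl2, -2.04 for Rb1cc1 and -1.64 for Nbr1. Each of these values contains the 3 WT saline libraries and the library labelled KO ethanol 12. These were the 4 libraries with the most blood RNA (337 to 1320 CPM, and 766 CPM in KO ethanol 12). They also had the highest sums of neuron genes (6110 to 7240 CPM, and 7720 CPM in KO ethanol 12). The Trp53 transcript share of KO ethanol 12 was also that of 3 WT libraries, but at its few counts that share does not tell the genotype. The part of blood RNA, of neuronal RNA and of the library labelled KO ethanol 12 in the differences was not tested. Groups of 3 are too small for the test of single outlying libraries.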

How the results depend on the processing

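No paired analysis was possible because the groups compared share no replicate numbers. Limma on log2(RPKM + 1) or log2(RPKM + 0.1) and the linear model on RPKM called 0 members for WT ethanol, for KO saline and for the interaction, against 9, 9 and 5. Over all 14739 genes limma called 356, 419 and 16 on log2(RPKM + 1), and 185, 257 and 5 on log2(RPKM + 0.1). The linear model called 223, 235 and 2 of them. Fitting only the groups compared called 0 members in WT ethanol, beside 39 of 14006 genes. Without the 2 libraries named with L the counts were 24 in WT ethanol, 24 in KO saline, 17 for Treatment, 22 for Genotype and 11 for the interaction, beside 55.4%, 56.4%, 46.0%, 50.5% and 28.9% of all genes. With the trend removed as well, an alternative chosen after seeing the data, they were 26, 27, 21, 24 and 9, beside 53.2%, 53.4%, 49.3%, 53.2% and 14.3%. The interaction count was 8 with at least 10 counts in every library, 0 with the name letter as covariate and 0 with the trend removed. Over all genes those counts were 1871 of 7624, 0 and 30. Leaving out 1 library at a time gave 0 to 19 members in WT ethanol, 0 to 22 in KO saline, 0 to 8 for Treatment, 0 to 8 for Genotype and 0 to 13 for the interaction, each highest without WT saline 3, when 48.7%, 50.4%, 23.3%, 33.2% and 33.8% of all genes were called, and 0 for both other contrasts. With 1 library left out at a time, member transcripts whose shares did not overlap ran from 1 to 11 in WT ethanol. They ran from 2 to 9 in KO ethanol against KO saline, 5 to 10 in KO saline against WT saline and 3 to 6 in KO ethanol against WT ethanol. A group that loses a library separates more easily from the other group. The share over all genes was not computed for these runs, so the ranges are no result about the members. In KO, Rb1cc1 turned to 0.14 with the trend removed, and Map1lc3a turned to -0.27 without the L libraries, -0.25 without KO ethanol 12 (1.33 without KO ethanol 18) and -0.86 without the L libraries and the trend. The cause was not tested. Over 31 values for single genes and 26 alternatives, 799 repeats gave 526 with the same call, 269 that lost it and 4 reversed. The 526 include values of KO ethanol against KO saline and against WT ethanol, which were not called at first and so could not lose a call. For values that were called, from 6 (Gabarap in KO saline) to 18 (Wipi2 in WT ethanol) of 26 repeats lost the call. Genes under 10 counts in some libraries, such as Tfeb, are limited by depth.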
